A study of Arabidopsis thaliana with 12 samples.

Results

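Small RNA was compared between rdr6-11 and wild-type Arabidopsis thaliana, using 3 rdr6-11 and 3 Col-0 libraries of the 12 in the series and all 30926 gene rows of the count table. Plants of rdr6-11 carry a mutant allele of RDR6 with both cytoplasmic RNA decay routes intact, and Col-0 is the wild type. For the same loss with decay disabled, 3 libraries of rdr6-11 ein5-1 ski2-3 were set against 3 of ein5-1 ski2-3, which lacks the 5' exonuclease EIN5 and the exosome helicase SKI2. All plants were 18 days old and had been moved to soil as seedlings, and RNA under 200 nt came from their aerial parts. The design text calls the libraries of a genotype biological replicates. Nothing says how many plants went into 1 library, so p-values measure the spread between libraries.

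RDR6 copies single-stranded RNA, often the fragments left after an AGO-bound miRNA has cut a transcript, into double strands, as an RNA-dependent RNA polymerase. DCL4 dices these into secondary siRNAs in a register set by the cut. The TAS loci are non-coding transcripts dedicated to this route, and their trans-acting siRNAs direct the cutting of other transcripts. Some messenger RNAs, among them those of PPR proteins, NB-LRR immune receptors and auxin receptors, feed the same route and yield phased siRNAs from coding sequence. MIR genes use a different path, in which DCL1 cuts a folded precursor and no RDR6 is needed.

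Total counts were 2579417 to 2834954 in the rdr6-11 libraries and 2358724 to 2750605 in the Col-0 libraries, with a median of 1 count per gene in both groups. Of the 30926 genes, 27272 had at least 1 count and 4496 passed the filter on low counts. Levels are CPM normalised by TMM, a scaling that centres most genes, and all log2 changes are rdr6-11 over Col-0. The mutated gene gave no check of the labels, since RDR6 had 0, 1 and 0 counts in rdr6-11 and 1, 2 and 3 counts in Col-0. Leaf markers were well covered and root and floral markers had few counts. The 5 root genes summed to 16 counts in rdr6-11 and 7 in Col-0, and the 5 floral genes to 7 and 2 counts in those genotypes. With a median of 1 count per gene, such low counts cannot show that a tissue was absent. Replicate 3 of rdr6-11 stood somewhat apart, at a mean chi-square of 2.02 and 2.04 per gene from replicates 1 and 2, against 1.17 to 1.30 between the other pairs within rdr6-11 or Col-0; without it the same 30 loci were called lost.

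Loss of small RNA was deep and narrow. Small RNA was at least 8-fold lower at 30 loci, which is 0.667% of the genes tested, and these fell into few families: 7 TAS loci, 18 genes for PPR or TPR-like repeat proteins, 3 NB-LRR genes, the transcription factor gene SPL2 and the phosphatase gene PFA-DSP4. Each kept between 0.357% and 4.69% of its Col-0 level, with a median of 1.01%. At all 30 every rdr6-11 library lay below every Col-0 library, which held for 29.8% of the genes tested. The 30 were picked by the size of their change in these same libraries, so this is a description and no separate support. Together they gave 74.4, 74.3 and 79.8 CPM in the rdr6-11 libraries, against 7662, 7156 and 7506 CPM in Col-0. TAS loci supplied 59.2% of that Col-0 sum and PPR or TPR-like genes 39.3%. A gap separated them from the rest, because the least changed of the 30 had a log2 change of -4.30 and the next gene one of -2.97. Only 3 genes lay between 4-fold and 8-fold lower. In edgeR's quasi-likelihood test with Benjamini-Hochberg adjustment 1219 genes were lower (27.1% of those tested) and 1426 higher (31.7%), but 948 of the lower and 915 of the higher genes changed by under 2-fold.

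**Figure D1:**
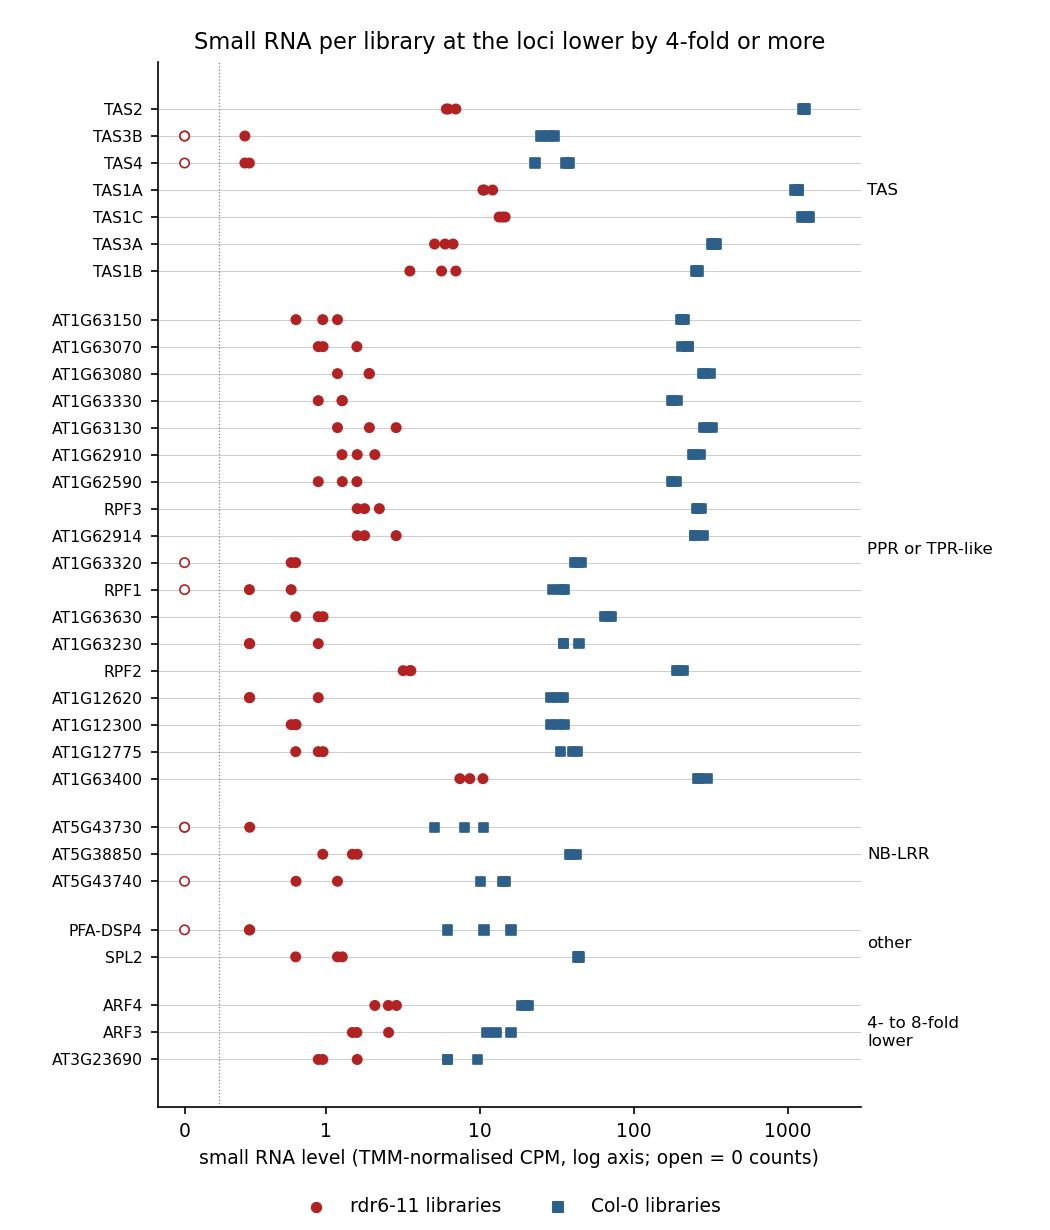
Small RNA level per library (TMM-normalised CPM, log axis, open symbols for 0 counts) of the 30 loci at least 8-fold lower in rdr6-11 and of the 3 genes 4- to 8-fold lower, by family. At each locus the 3 rdr6-11 libraries (circles) lie below the 3 Col-0 libraries (squares), with summed levels of the 30 loci of 74.3 to 79.8 CPM and 7156 to 7662 CPM.

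The sequences below show how the loci that lost small RNA pair with miRNAs listed as starting secondary siRNA production. In that list miR156 stands as a regulator of SPL2, and whether it starts siRNAs there was not tested. They were read from the RefSeq TAIR10.1 genome, the assembly whose annotation names the TAIR10 loci. In a miRNA the capitals mark the seed, bases 2 to 8. In a site, written 5' to 3' on the transcript's strand, the capitals mark bases that do not form a Watson-Crick pair with the miRNA.

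miR173, which cuts TAS1 and TAS2 transcripts, is shown with the sites of those 4 loci, all in non-coding exons. TAS1A and TAS1C hold the same site.
miR173-5p: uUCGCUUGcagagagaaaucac
TAS2 (chr2:16539991-16540012, minus strand): gugauuuUucucuCcaagcgaa
TAS1A (chr2:11722081-11722102, minus strand): gugauuuUucucuAcaagcgaa
TAS1C (chr2:16537890-16537911, minus strand): gugauuuUucucuAcaagcgaa
TAS1B (chr1:18549660-18549681, minus strand): gugauuuUucucAAcaagcgaa

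miR390, which acts on TAS3 transcripts through the specialised AGO7, and miR828, which cuts TAS4, are shown with their sites in non-coding exons.
miR390a-5p: aAGCUCAGgagggauagcgcc
TAS3A (chr3:5862099-5862119, plus strand): ggUgUuauccUAUcugagcuu
TAS3B (chr5:20134458-20134478, plus strand): gAcgcuaucUUAccugagcuu
miR828: uCUUGCUUaaaugaguauucca
TAS4 (chr3:9417809-9417830, minus strand): uggaauacucauuuGagcaaga

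miR161.2 and miR400, both known regulators of PPR genes, are shown with sites in the coding sequence of PPR or TPR-like genes, and miR161.2 also with its site in the PPR pseudogene AT1G62860, which kept its small RNA to a far greater extent.
miR161.2: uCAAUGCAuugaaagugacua
AT1G63150 (chr1:23420381-23420401, plus strand): uUguUacuuucaaugcauuga
AT1G62590 (chr1:23178190-23178210, minus strand): uagucacGuucaaugcauuga
AT1G63400 (chr1:23508308-23508328, plus strand): uagucacuuucaaCgcauuga
AT1G62860 (chr1:23276009-23276029, minus strand): uUguUacuuucaGCgcauuga
miR400: uAUGAGAGuauuauaagucac
RPF2 (chr1:23205457-23205477, minus strand): gugacuuauaauacGcuUaua
RPF3 (chr1:23307719-23307739, plus strand): gugacuuaCaauacucuUaua

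The last set holds the NB-LRR genes with miR472, SPL2 with miR156, and the less reduced bHLH gene AT3G23690 with miR393, all in coding sequence.
miR472-3p: uUUUUCCUacuccgcccauacc
AT5G43740 (chr5:17566541-17566562, plus strand): gguaugggGggaguaggaaaaa
AT5G43730 (chr5:17560801-17560822, plus strand): gguaugggGggaAuaggaaaaa
miR156a-5p: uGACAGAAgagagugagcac
SPL2 (chr5:17360758-17360777, minus strand): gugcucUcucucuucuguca
miR393a-5p: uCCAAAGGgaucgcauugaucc
AT3G23690 (chr3:8530587-8530608, minus strand): ggGucaGAgcgaucccuuuggC

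A scan of each gene's sense strand for 11 such mature miRNAs, with a penalty of 1 for a mismatch, 0.5 for a G:U pair and at most 4 in all, found a match in 27 of the 30 loci. The same scan found one in 103 of 3612 tested genes, or 2.85%, and in 3.89% of the 2003 tested protein-coding genes. All 7 TAS loci matched, as did 17 of the 18 PPR or TPR-like genes, 2 of the 3 NB-LRR genes and SPL2. Of the PPR or TPR-like genes, 16 matched miR161.2, 15 matched miR161.1, which is cut from the same precursor, and 14 matched miR400. The 3 loci without a match were AT1G63320, AT5G38850 and PFA-DSP4, for which only these letters and this penalty were searched. Of the 103 tested genes with a match 27 were among the 30 lost loci, while 75 were not as much as 4-fold lower. The scan is a description, and the PPR genes share sequence, so their matches are not independent. The miRNAs searched include the known regulators of these families, so the higher share among the lost loci is no independent test. Some matches were at the limit of 4. Those of RPF1 to miR161.1 and of AT1G12620 to miR161.2 each had 6 bases outside Watson-Crick pairs.

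Among the TAS loci, TAS2, a source of siRNAs against PPR transcripts, had 6.04, 6.21 and 6.97 CPM in rdr6-11 and 1293, 1260 and 1303 CPM in Col-0. TAS1C, which like the other TAS1 loci makes siRNAs against HTT and PPR transcripts, had 14.0, 13.3 and 14.6 CPM in rdr6-11 and 1335, 1232 and 1385 CPM in Col-0. The libraries of a genotype lay close together and the genotypes were far apart, with log2 changes of -7.64 ± 0.09 for TAS2 and -6.56 ± 0.08 for TAS1C (SE, n = 3 per group). TAS1A, whose miR173 site is that of TAS1C, had 12.1, 10.7 and 10.4 CPM in rdr6-11 and 1171, 1113 and 1172 CPM in Col-0. TAS1B kept more, with 3.50, 5.62 and 6.97 CPM in rdr6-11 and 264, 251 and 260 CPM in Col-0, or 2.07% of the Col-0 level against 0.499% for TAS2.

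TAS3A gives the siRNAs named tasiR-ARFs, which act on transcripts of auxin response factors. It had 6.68, 5.92 and 5.07 CPM in rdr6-11 and 343, 320 and 328 CPM in Col-0, and kept 1.78%. TAS3B and TAS4 were at or next to 0 in every rdr6-11 library. TAS3B gave 1 count over the 3 rdr6-11 libraries and 181 over the 3 Col-0 libraries, a ratio of 269 of Col-0 over rdr6-11 with a 95% exact counting interval of 47.7 to 10683. TAS4 gave 2 and 214 counts in those groups, a ratio of 159 with an interval of 43.5 to 1322. The intervals cover counting error only.

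TAS3C was not tested, because its counts were too low for the filter. It had 2, 4 and 1 counts in rdr6-11 and 8, 11 and 9 counts in Col-0, and all rdr6-11 libraries lay below all Col-0 libraries. The ratio of Col-0 over rdr6-11 was 5.94 with a 95% counting interval of 2.54 to 16.1. That interval lies below those of TAS3B and TAS4. A 2-sided exact permutation test of 3 libraries against 3 gave p = 0.1, the smallest it allows.

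The 18 PPR or TPR-like genes that lost small RNA all lay on chromosome 1, of 5 nuclear chromosomes. These proteins bind organelle RNA, and RPF1, RPF2 and RPF3 are RNA processing factors that shape the 5' ends of mitochondrial transcripts. In a stretch of 411 kb (chromosome 1, 23176930 to 23588421, TAIR10) 14 of the 19 tested genes lost it, and the other 4 genes lay in a stretch of 173 kb (4183010 to 4355929) on the other arm. The 5 other tested genes of the longer stretch, among them the PPR pseudogene AT1G62860, fell far less or not at all. Their log2 changes lay between -0.97 and 0.34, with a median of -0.61. The 2 other tested genes of the shorter stretch changed by -0.93 and -0.69. The families are tandem copies in which reads can match several members: AT1G62590 and AT1G63330 had almost the same counts in every Col-0 library. Which copy a read came from cannot be told from the counts, so the number of separate source genes is not known.

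**Figure D2:**
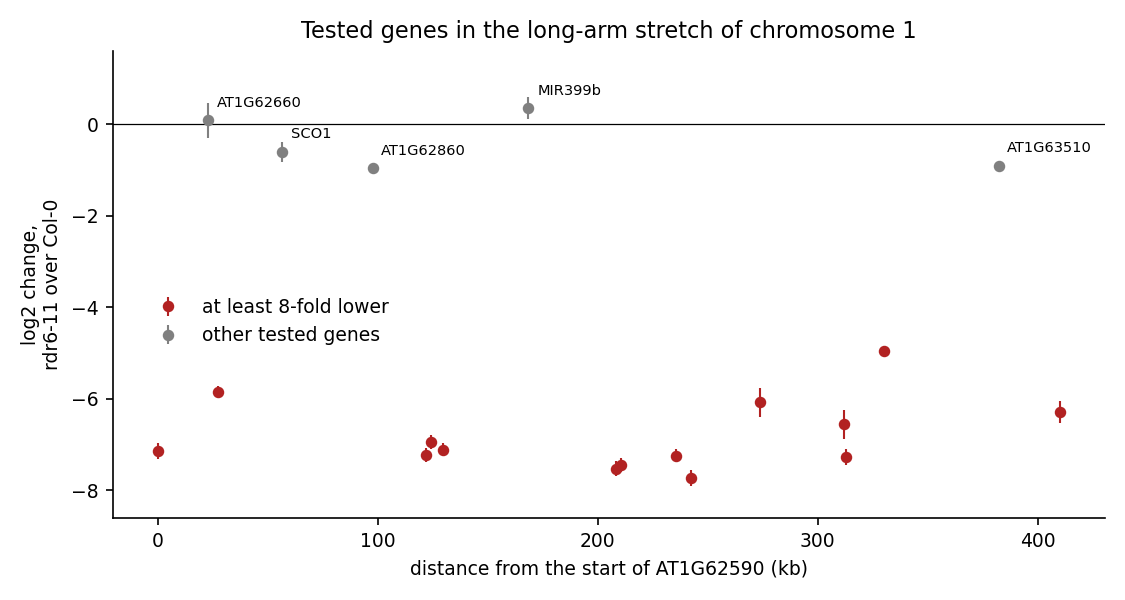
Log2 change (rdr6-11 over Col-0, with SE) of the 19 genes tested in the long-arm stretch of chromosome 1, against distance in kb from the start of AT1G62590. The 14 genes that lost small RNA lie between -7.73 and -4.96, and the 5 others, named in the plot, between -0.97 and 0.34.

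AT1G63150 had the lowest log2 change of any gene, -7.73 ± 0.17 (SE, n = 3 per group). Its libraries stood at 0.636, 1.18 and 0.950 CPM in rdr6-11 and at 214, 204 and 203 CPM in Col-0. AT1G63400 kept the most of the 18, 3.21%, with 8.59, 7.40 and 10.4 CPM in rdr6-11 and 299, 260 and 264 CPM in Col-0. RPF2 stood between them, with 3.50, 3.55 and 3.17 CPM in rdr6-11 and 210, 190 and 197 CPM in Col-0. RPF1, on the short arm, had 0, 0.592 and 0.317 CPM in rdr6-11 and 29.5, 33.9 and 35.3 CPM in Col-0. With 3 counts over the rdr6-11 libraries and 214 over the Col-0 libraries, its ratio of Col-0 over rdr6-11 was 106 with a counting interval of 35.8 to 518.

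The other copies differed widely in their Col-0 level. The best covered of them was AT1G63130, with 1.91, 1.18 and 2.85 CPM in rdr6-11 and 325, 284 and 302 CPM in Col-0. AT1G63080 followed with 1.91, 1.18 and 1.90 CPM in rdr6-11 and 316, 281 and 289 CPM in Col-0. RPF3 had 1.59, 1.78 and 2.22 CPM in rdr6-11 and 275, 255 and 258 CPM in Col-0. These 3 kept between 0.563% and 0.708% of their Col-0 level. Among the less covered copies, AT1G63320, which held none of the searched sites, had 0, 0.592 and 0.633 CPM in rdr6-11 and 45.4, 43.0 and 41.0 CPM in Col-0. AT1G12300, on the short arm, had 0.636, 0.592 and 0.633 CPM in rdr6-11 and 28.7, 35.4 and 32.2 CPM in Col-0. The 18 genes kept between 0.446% and 3.21%, with a median of 0.859%, and the 7 TAS loci between 0.357% and 2.07%, with a median of 0.960%.

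AT1G62860, annotated as a transcribed PPR pseudogene inside the longer stretch, changed far less than the 14 genes around it. It had 88.4, 102 and 113 CPM in rdr6-11 and 187, 195 and 211 CPM in Col-0, a log2 change of -0.97 ± 0.08 (SE, n = 3 per group). It carries matches to miR161.1, miR161.2 and miR400, as do most of the 18 genes that lost small RNA. Its change was -0.43 with libraries scaled to total counts. Most of the PPR family had too little small RNA to test: of 297 genes annotated as PPR 17 were tested, and of these 14 were lower, 13 of them by at least 8-fold, and 2 were higher. Over all genes tested 27.1% were lower, 0.667% were at least 8-fold lower, and 31.7% were higher. The 2 higher genes were AT2G02750 at a log2 change of 0.55 (-0.14 scaled to MIR counts), which overlaps other annotated genes, and AT5G27300 at 1.15. Scaled to MIR counts AT5G27300 was at 0.46 and not called.

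Of the NB-LRR genes, which encode intracellular receptors for pathogen effectors, 3 of 31 tested lost their small RNA. AT5G43730 and AT5G43740 are neighbours, known to be targeted by miR472. AT5G43740 had 0.636, 1.18 and 0 CPM in rdr6-11 and 14.1, 10.1 and 14.5 CPM in Col-0. AT5G43730 gave 1 count over the rdr6-11 libraries and 52 over the Col-0 libraries, a ratio of 77.3 of Col-0 over rdr6-11 with a counting interval of 13.3 to 3111. Both overlap another annotated gene, and reads cannot be assigned by strand. AT5G38850, known as a source of phased siRNAs, had 1.59, 1.48 and 0.950 CPM in rdr6-11 and 38.4, 38.9 and 42.3 CPM in Col-0. Of the other 28 tested members 6 were lower, 1 was higher and 21 were not called. Over all 31, 9 were lower and 1 higher, against 27.1% and 31.7% of all genes tested, and with total counts 3 were lower and 4 higher. The median over the 31 was -0.35 (0.18 when total counts set the scale).

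SPL2, a transcription factor of the juvenile-to-adult change and a target of miR156, had 1.27, 1.18 and 0.633 CPM in rdr6-11 and 43.2, 43.5 and 44.5 CPM in Col-0. PFA-DSP4, an atypical dual-specificity phosphatase, had 0.318, 0 and 0.317 CPM in rdr6-11 and 15.9, 10.6 and 6.17 CPM in Col-0, and the ratio of Col-0 over rdr6-11 was 52.8 with a counting interval of 14.1 to 444.

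Some small RNA was left at the auxin response factor genes. ARF2, ARF3 and ARF4, auxin response factors that tasiR-ARFs direct for cutting, were the 3 tested members of the 10 tasiRNA targets, and all 3 were lower. Of all genes tested 27.1% were lower. ARF4 had 2.86, 2.07 and 2.53 CPM in rdr6-11 and 19.8, 18.7 and 20.7 CPM in Col-0, a log2 change of -2.97 ± 0.26. ARF3 had 2.54, 1.48 and 1.58 CPM in rdr6-11 and 12.8, 11.1 and 15.9 CPM in Col-0, a change of -2.81 ± 0.32. ARF2 changed by -1.45 ± 0.23 (SE, n = 3 per group for each). ARF4 and ARF3 thus kept 12.6% and 14.1% of their Col-0 level, outside the range of the 30 loci.

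The third gene between 4-fold and 8-fold lower was AT3G23690, a bHLH gene known as a target of miR393 and named after its values were seen, with 1.59, 0.888 and 0.950 CPM in rdr6-11 and 6.17, 9.61 and 6.17 CPM in Col-0. The auxin receptor genes TIR1, AFB2 and AFB3, the best known miR393 targets, had too few counts to be tested. TIR1 had 5, 14 and 10 counts in rdr6-11 and 4, 8 and 7 in Col-0, and AFB3 had 4, 10 and 6 counts in rdr6-11 and 7, 5 and 9 in Col-0. AFB2 had 5, 9 and 8 counts in rdr6-11 and 18, 6 and 12 in Col-0. In CPM the genotypes overlapped for TIR1 and AFB3, while the rdr6-11 libraries lay below the Col-0 libraries for AFB2. After those 3 genes the next change was -1.56, that of the F-box gene FBW2, named here only as the next in order.

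Of 29 loci outside the TAS class known to give phased siRNAs, 18 were tested and all 18 were lower, 16 of them by at least 8-fold. Of all genes tested 27.1% and 0.667% were so. The 16 are among the 30 lost loci, and the list was chosen with earlier results of these data known. These counts are therefore a description and no independent test. With total counts 17 were lower. Those of the 18 not lower by 8-fold were AT1G62860, annotated as a pseudogene, and AGO1. AGO1, the main miRNA effector and itself cut under miR168, changed by -0.79 ± 0.33 (adjusted p = 0.0393 in edgeR). The AGO1 call held without rdr6-11 replicate 1 and was lost, at -0.84 to -0.60, in each of the 5 fits without another library, and the value was -0.26 scaled to total counts. Among the 11 members too low to test, AT5G16640 had 1 count in rdr6-11 and 22 in Col-0, a ratio of 32.7 of Col-0 over rdr6-11. AT1G51480, an NB-LRR gene, had 3 counts in rdr6-11 and 30 in Col-0, a ratio of 14.9. The anthocyanin regulators MYB75, MYB90 and MYB113, which TAS4 siRNAs act on, had at most 4 counts in any library.

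The miRNAs listed as starting these siRNAs were not lost. The list includes miR156 as a regulator of SPL2, and whether miR156 starts siRNAs was not tested. Of 20 MIR genes for such miRNAs 16 were tested, and all 16 rose, with a median log2 change of 0.78, or 1.32 scaled to total counts, although scaling to MIR counts put 6 of them (MIR161, MIR400, MIR472, MIR825, MIR168a and MIR156c) below 0, between -0.20 and -0.01. The calls of MIR825 and MIR168a were lost in DESeq2, and with 1 library left out they held in 3 and 2 of 6 fits. In all 16 every rdr6-11 library lay above every Col-0 library, which held for 33.8% of the genes tested. The rise was not particular to these genes, since 84 of all 100 tested MIR genes were higher, at a median log2 change of 0.69. Of all genes tested 31.7% were higher. MIR173 had 246, 240 and 251 CPM in rdr6-11 and 154, 129 and 149 CPM in Col-0. MIR390a had 181, 162 and 178 CPM in rdr6-11 and 84.7, 83.4 and 74.9 CPM in Col-0, and MIR390b, whose miRNA is the same, nearly the same values. The ranges of the genotypes were clearly apart, at log2 changes of 0.77 ± 0.07 for MIR173 and 1.10 ± 0.08 for MIR390a.

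MIR161, the precursor of both miR161 forms, had 1229, 1099 and 1254 CPM in rdr6-11 and 857, 830 and 797 CPM in Col-0. MIR400 had 92.6, 89.7 and 103 CPM in rdr6-11 and 63.1, 65.2 and 73.2 CPM in Col-0. With libraries scaled to the summed counts of MIR genes, which holds that sum level by construction, MIR161 stood at -0.18 and MIR400 at -0.20, while MIR390a was at 0.40 and still higher, and MIR173 was at 0.07 and not called. MIR828, which acts on TAS4, was too low to test, with 3, 2 and 1 counts in rdr6-11 and 0, 1 and 1 in Col-0.

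**Figure D3:**
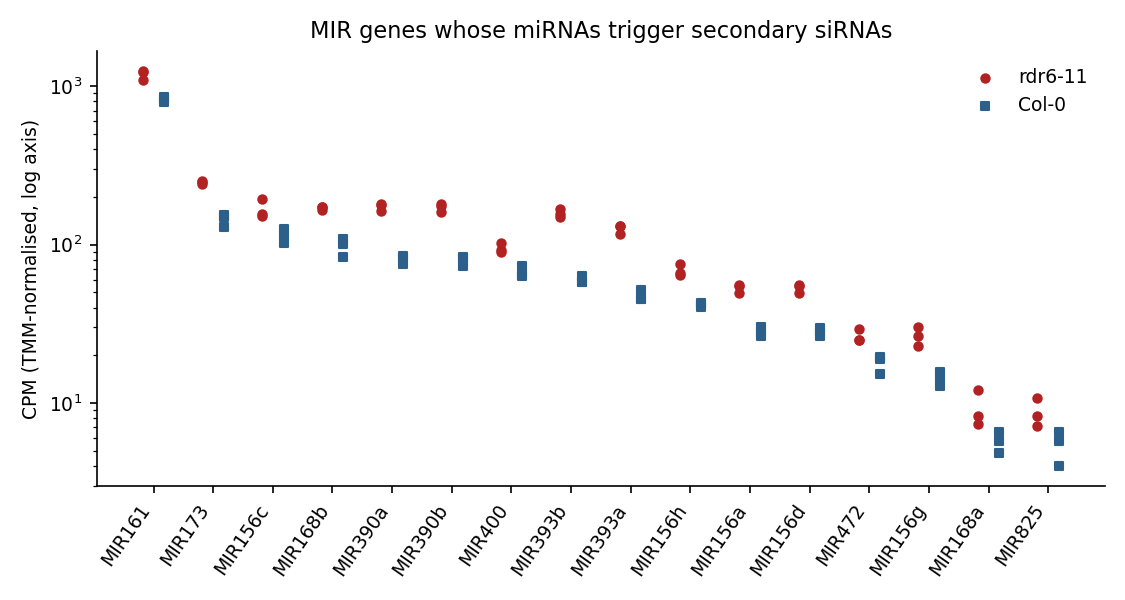
Level (TMM-normalised CPM, log axis) of the 16 tested MIR genes whose miRNAs are listed as starting secondary siRNA production, MIR156 genes included, ordered by their Col-0 mean, with the 3 rdr6-11 libraries (circles, left) and the 3 Col-0 libraries (squares, right) of each. At all 16 the rdr6-11 libraries lie above the Col-0 libraries, from MIR161 at 1099 to 1254 CPM in rdr6-11 down to MIR825 at 7.10 to 10.8 CPM.

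MIR genes gained small RNA as a class. Of 100 tested, 84 were higher, against 31.7% of all genes tested, and 16 were not called. The median log2 change of the 100 was 0.69, while the median of all 4496 genes was -0.08. DESeq2 called 72 higher. With MIR counts as the scale, calls were 17 higher against 16 lower and the median change was -0.01. The class made up 5.52%, 5.29% and 6.09% of counts in the rdr6-11 libraries and 2.45%, 2.29% and 2.43% in the Col-0 libraries. Shares do not depend on the scaling between libraries, but they must sum to the whole, so a rise in one class lowers others. In all 12 classes the 2 genotypes did not overlap in share, and a 2-sided exact permutation test gave p = 0.1 for each, the smallest that 3 libraries against 3 allow (adjusted p = 0.1 over the 12 classes).

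The MIR genes that rose most by the rule used here were MIR852, which overlaps another gene, MIR393a, MIR393b, MIR391, MIR858a and MIR779. MIR393a, whose miRNA acts on auxin receptor transcripts, had 131, 117 and 130 CPM in rdr6-11 and 51.6, 45.5 and 45.0 CPM in Col-0, and rose by 1.41 ± 0.09. MIR391 had 51.5, 43.8 and 52.6 CPM in rdr6-11 and 19.0, 22.2 and 15.9 CPM in Col-0. MIR858a, whose miRNA acts on MYB genes of flavonoid synthesis, had 27.0, 27.2 and 27.9 CPM in rdr6-11 and 9.70, 13.1 and 12.3 CPM in Col-0. These 3 kept positive changes under the MIR scaling, at 0.71, 0.68 and 0.53. The MIR genes of highest level in Col-0 rose less: MIR159b by 0.54 and MIR159c by 0.47, which MIR scaling turned to -0.17 and -0.23, and MIR166a and MIR166b, which share their mature miRNA, by 0.88 and 0.89.

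**Figure D4:**
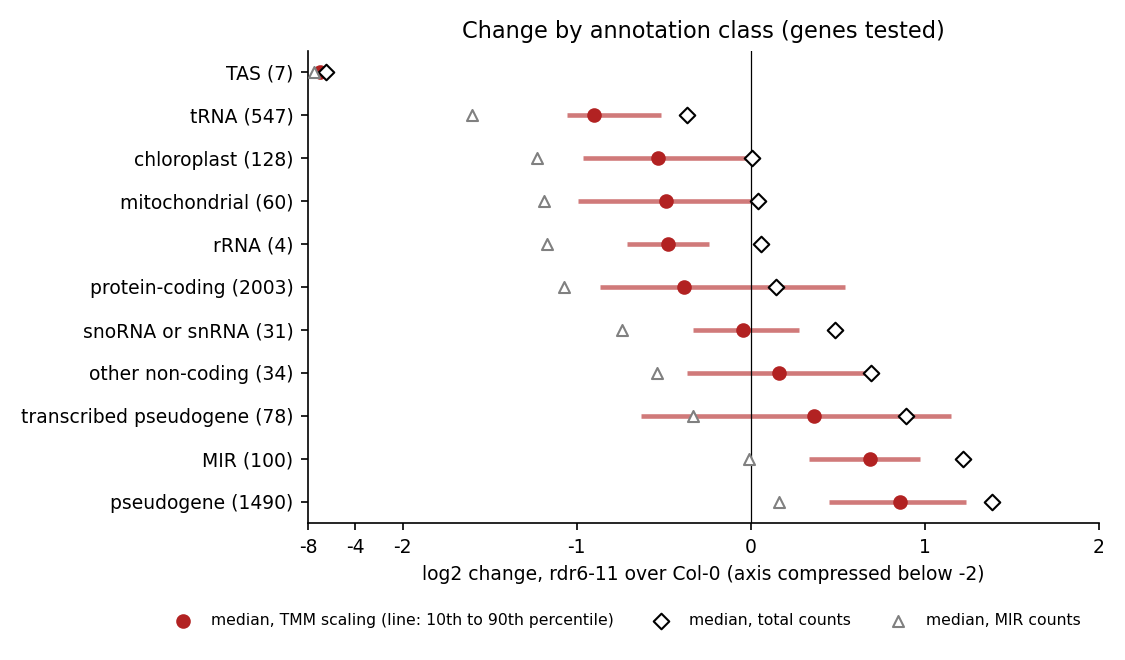
Median log2 change (rdr6-11 over Col-0) of each annotation class with TMM scaling (filled circles, lines from the 10th to the 90th percentile of genes), total counts (diamonds) and MIR counts (triangles). The axis is compressed below -2. TAS loci lie far left at -6.70 under TMM, while the medians of protein-coding genes (-0.38) and rRNA genes (-0.47) turn positive with total counts.

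Genes annotated as pseudogenes formed the largest group that gained. The class can hold transposon-type genes as well, which were not told apart here. Of 1490 tested 1130 were higher and 9 lower. Their median change was 0.86, and they made up 424 of the 511 genes that rose by at least 2-fold. Per chromosome between 69.6% and 81.9% of the tested pseudogenes were higher, on chromosomes 2 and 4. Scaled to MIR genes, 85 were higher and 32 lower, and the median was 0.16. The class took 3.80%, 3.65% and 4.16% of counts in the rdr6-11 libraries and 1.79%, 1.79% and 1.80% in the Col-0 libraries. Transcribed pseudogenes are a separate class, in which 29 of 78 tested were higher (37.2%) and 12 lower (15.4%). All genes tested had 31.7% higher and 27.1% lower. PSEUDOSRKA, a broken receptor gene of the self-incompatibility locus, belongs to that separate class. It had 8.27, 10.4 and 8.55 CPM in rdr6-11 and 0 counts in each Col-0 library. It was at least 19.7-fold higher against a floor of 3 counts over the Col-0 group. It overlaps another annotated gene. Highest in the pseudogene class by the naming rule were AT3G29440, AT1G12935, AT5G26590, AT1G18930 and AT1G19392, with log2 changes between 2.09 and 2.24. All lack a described product. AT3G29440 and AT5G26590 had the same counts of 21, 20 and 24 in rdr6-11. AT1G12935 and AT1G18930 were nearly alike there, at 22, 22 and 29 and at 21, 22 and 28 counts. Whether the same reads were counted at several loci cannot be told from the counts, also for others of the 1130. AT4G01455 and AT5G34790 went the other way by -1.06 and -1.04, which became -0.52 and -0.50 scaled to total counts.

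Most protein-coding genes moved little, and the direction of their calls followed the scaling. Of 2003 tested, the lost ones included, 165 were higher (8.24%) and 578 lower (28.9%), against 404 and 74 with total counts and 11 and 1471 with MIR counts. Over genes of all classes 31.7% were higher and 27.1% lower. Among all called genes the share of higher ones was 53.9%, and 81.7% with total counts. The median change of all genes was -0.08, 0.45 with total counts and -0.77 with MIR counts, so the sign of changes of that size depends on the scaling. Of the leaf photosynthesis markers, 9 of 10 were lower, against 27.1% of all genes tested, and 1 was not called. The median of the 10 was -0.67. With total counts 2 were lower, at a median of -0.14. RBCS1A, a Rubisco small subunit gene with near-identical copies, had 238, 262 and 217 CPM in rdr6-11 and 396, 392 and 359 CPM in Col-0. In bulk tissue, fewer cells of a type and less RNA per cell cannot be told apart.

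The 12 protein-coding genes that rose most had low levels, and 5 of them lay on chromosome 5 between 10566846 and 14185277 (TAIR10). PAI1, an enzyme of tryptophan synthesis with near-identical relatives, led them with 5.73, 5.33 and 6.65 CPM in rdr6-11 and 0.441, 1.01 and 0.441 CPM in Col-0, a log2 change of 3.17 ± 0.50. RPK1, a receptor-like kinase of abscisic acid responses that overlaps another gene, rose by 2.00 ± 0.45. TCH4, a cell wall enzyme induced by touch, had 11.5, 9.77 and 8.23 CPM in rdr6-11 and 3.09, 2.53 and 3.53 CPM in Col-0. SZF1, a zinc finger protein of the salt response, had 10.2, 7.40 and 8.55 CPM in rdr6-11 and 2.65, 3.03 and 2.64 CPM in Col-0. In both genes all rdr6-11 libraries lay above all Col-0 libraries, which the rule for naming them required. The remaining genes of the 12 rose by 1.18 to 1.80. Of these, CYP79A4P, CPK22, AT5G29070 and AT2G31215 were at 0.49 to 0.72 scaled to MIR counts and not called, while the others were still higher. The call of CYP79A4P held in 4 of 6 fits with 1 library left out.

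Counting as kept a gene whose 95% interval lies inside a 2-fold change either way, 1514 genes (33.7% of those tested) kept their small RNA, 898 of them protein-coding. FIP2, a protein with pentapeptide repeats, had 946, 928 and 896 CPM in rdr6-11 and 978, 877 and 908 CPM in Col-0, and its 95% interval ran from -0.10 to 0.11. This depends on the scaling, since its change was 0.54 with total counts and -0.69 with MIR counts, both past the test. AT1G29465, an uncharacterized gene, had 959, 1014 and 1142 CPM in rdr6-11 and 777, 943 and 1038 CPM in Col-0, an interval from 0.04 to 0.31. It was called higher within that interval (adjusted p = 0.021 in edgeR), and its change was -0.53 with MIR counts. The interval was also inside 2-fold for AT2G01021 and AT4G12070, but both were lower within it, by -0.65 and -0.76. Among genes 2-fold to 4-fold lower, 126 of 238 were tRNA genes and 92 protein-coding. Of 547 tRNA genes 478 were lower, against 27.1% of all genes tested, and 69 were not called. The median over the 547 was -0.90, or -0.37 with total counts. The share of counts at tRNA genes was 8.03% to 8.15% in rdr6-11 and 9.72% to 9.83% in Col-0.

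A non-coding gene on chromosome 4, AT4G13495, named after its values were seen, also gained small RNA. It had 1549, 1376 and 1560 CPM in rdr6-11 and 656, 633 and 613 CPM in Col-0, a log2 change of 1.24 ± 0.05. Other genes overlap it, so its reads cannot be assigned to it alone. The galactose mutarotase-like gene AT5G66530 fell, with 104, 115 and 96.9 CPM in rdr6-11 and 254, 260 and 257 CPM in Col-0, and a change of -1.29 that was -0.75 with total counts. It also overlaps a neighbour and was named after its values were seen.

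With decay disabled the same loci were lost again. All 30 were lower in rdr6-11 ein5-1 ski2-3 than in ein5-1 ski2-3, where 27.0% of 7219 tested genes were lower. These libraries are not shared with the first comparison. In ein5-1 ski2-3 the counts of replicates 1 and 2 differed by about as much as sampling noise gives (mean chi-square 1.04 over genes), so they were summed and counted as 1 sample, which leaves n = 2. The median log2 change was -7.92, or -6.69 with the 3 loci at 0 counts in the triple mutant set to their bound, while the median of all genes was -0.21. Those 3 loci were AT1G63630, at least 183-fold lower than in ein5-1 ski2-3, RPF1, at least 96.5-fold, and TAS3B, at least 53.7-fold, against a floor of 3 counts over the triple-mutant group.

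**Figure D5:**
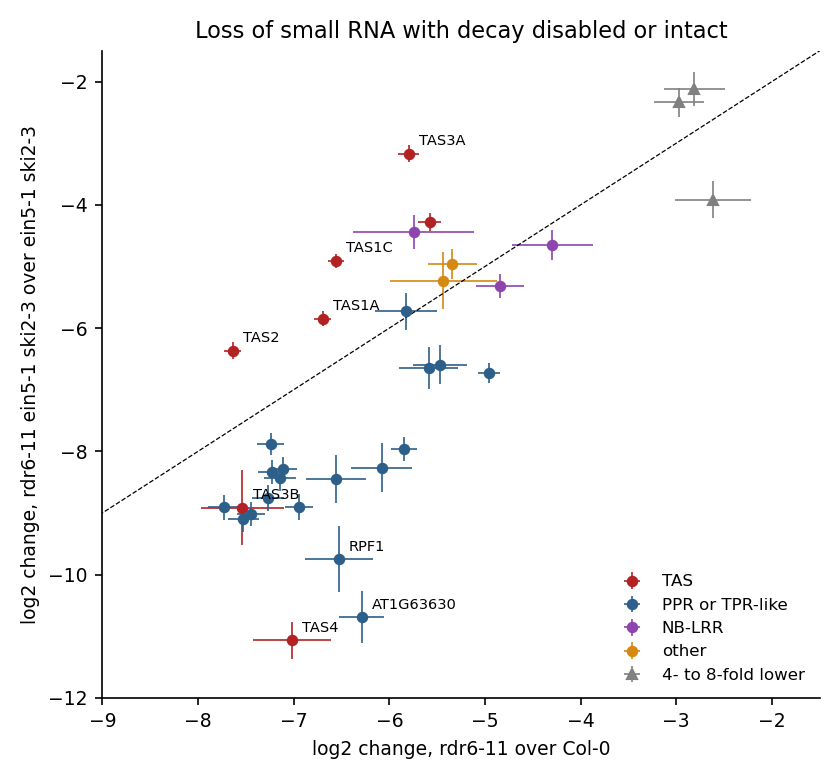
Log2 change (with SE) of rdr6-11 ein5-1 ski2-3 over ein5-1 ski2-3 (vertical) against that of rdr6-11 over Col-0 (horizontal) for the 30 loci by family and for the 3 genes 4- to 8-fold lower. The dashed line marks equal change. TAS3A lies above it at -3.17 and -5.80, and most PPR or TPR-like genes lie below it. Values of loci at 0 counts depend on the fit's prior count.

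In the fit to all genotypes the difference between the 2 changes passed the test at 15 of the 30 loci, a share near that of all genes tested, so the count itself says nothing particular of these loci. It was positive at 5 TAS loci (19.9% of all genes tested were positive), where less was lost with decay disabled, and negative at 10 loci (31.7% of all genes), 9 of them PPR or TPR-like genes and the other TAS4. TAS3A had 29.2, 18.0 and 22.8 CPM in the triple mutant, 232 and 185 CPM in ein5-1 ski2-3, 7.48, 6.72 and 5.74 CPM in rdr6-11 and 373, 346 and 350 CPM in Col-0, in the scaling of that fit. TAS1C had 35.2, 41.9 and 38.1 CPM in the triple mutant, 1321 and 985 CPM in ein5-1 ski2-3, 15.7, 15.1 and 16.5 CPM in rdr6-11 and 1453, 1335 and 1477 CPM in Col-0. Both thus had more small RNA left in the triple mutant than in rdr6-11. AT1G63400 had 6.82, 6.98 and 4.11 CPM in the triple mutant, 739 and 535 CPM in ein5-1 ski2-3, 9.62, 8.40 and 11.8 CPM in rdr6-11 and 326, 282 and 282 CPM in Col-0. RPF2 showed a similar order, with 1.52, 3.31 and 0.747 CPM in the triple mutant, 534 and 411 CPM in ein5-1 ski2-3, 3.92, 4.03 and 3.59 CPM in rdr6-11 and 228, 205 and 210 CPM in Col-0. At both genes the level of ein5-1 ski2-3 was above that of Col-0, while little was left in either genotype without RDR6. TAS4 gave 1 count over the 3 triple-mutant libraries and 4013 in ein5-1 ski2-3, a ratio of 2955 of ein5-1 ski2-3 over the triple mutant with a counting interval of 530 to 116733. Its level in ein5-1 ski2-3 was 398 and 309 CPM, against 39.3, 24.6 and 40.9 CPM in Col-0. The split depended on scaling, with 17 negative and 2 positive loci by total counts and 3 and 5 by MIR counts. It also depended on single libraries, since 4 loci were negative without ein5-1 ski2-3 replicates 1 and 2, 5 without rdr6-11 replicate 2, and 6 without rdr6-11 replicate 3 or replicate 1 or 3 of the triple mutant. The median difference of all genes was -0.31, with total counts -1.21 and with MIR counts 0.61.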

How the data were processed

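Gene-level read counts, whole numbers and not normalised, were deposited by the authors for each library. Per the submitters' processing notes the build was TAIR10 and the tools included Bowtie, Bowtie2, DESeq and CASAVA 1.8.2, with no roles stated. Read lengths, strand and the handling of reads with several matches are not given in the sources used here, so near-identical and overlapping genes are uncertain. Names and classes came from RefSeq TAIR10.1, which did not match 244 IDs. The counts of 6 libraries were fitted with edgeR 4.0.16 in R 4.3.3 (quasi-likelihood test, TMM, a minimum of 10 counts per library and 15 in all by filterByExpr, Benjamini-Hochberg threshold 0.05), after a check on simulated data. SE is the log2 change over the root of its F value. DESeq2 1.42.0 and other scalings were alternatives. A fit of 11 samples of all genotypes gave the triple-mutant contrasts. Members and gene lists were chosen with earlier results of these data known. Named genes were list members, the largest called changes per class whose genotypes did not overlap (a mean of at least 5 CPM in the higher one), and the MIR and kept genes of highest Col-0 level; others are marked in the text.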

Additional observations from a re-analysis of the deposited data

Results flagged for a closer look

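The difference between the log2 change on losing RDR6 in ein5-1 ski2-3 and that in wild type passed edgeR's quasi-likelihood test at 15 loci. It was positive at the TAS loci TAS3A (2.57), TAS1C (1.58), TAS1B (1.24), TAS2 (1.21) and TAS1A (0.79). It was negative at AT1G63630 (-4.45), TAS4 (-4.06), RPF2 (-2.17), AT1G62914 (-2.02), AT1G63400 (-1.84), AT1G63080 (-1.64), AT1G63070 (-1.62), AT1G63330 (-1.54), AT1G62590 (-1.35) and RPF3 (-1.23). AT1G63630 had 0 counts in the triple mutant and TAS4 had 1, so their sizes depend on the prior count of the fit. Against these values the median of all genes was -0.31. Of all 7219 genes tested 19.9% were positive and 31.7% negative, so the number of loci passing is near the share of all genes. The split also depended on the scaling, with 17 negative and 2 positive loci by total counts and 3 and 5 by MIR counts. With 1 sample left out, the result held in 1 of 11 fits for AT1G62590, 4 for AT1G63330, 5 for TAS4, 6 for AT1G63070, 7 for RPF3 and 10 for AT1G63080, and in all 11 for the other 9 loci.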

How the results depend on the processing

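All 30 lost loci were called lost under each alternative, which called 30 to 37 in all, or 52 with no filter on low counts. The broad shifts moved. DESeq2 called 1751 genes in all (main 2645), 886 higher, 64 protein-coding genes higher and 288 lower, 722 pseudogenes higher and 734 genes kept. Scaled to total counts 461 genes were lower, with 404 protein-coding genes higher and 74 lower. Scaled to MIR counts 118 genes were higher and 2329 lower, with 11 protein-coding genes higher and 1471 lower, 17 MIR genes higher and 85 pseudogenes higher. Without rRNA, tRNA and organelle genes 903 genes were higher, with 60 protein-coding genes higher and 927 lower, and 751 pseudogenes higher. With distinct profiles only, 104 protein-coding genes were higher. With no filter 774 genes were lower, 252 of them protein-coding. The cause was not tested.

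Signs turned under MIR scaling at MIR161 (-0.18), MIR400 (-0.20), MIR472 (-0.14), MIR825 (-0.01), MIR168a (-0.01), MIR156c (-0.16), MIR159b (-0.17), MIR159c (-0.23), FIP2 (-0.69) and AT1G29465 (-0.53). FIP2 was -0.01 with RLE factors and with DESeq2, -0.25 without rRNA, tRNA and organelle genes, where AT1G29465 was -0.08, and -0.13 with distinct profiles. Leaving out 1 library gave FIP2 -0.06 to 0.05, 2266 to 2662 calls, and 30 to 33 lost loci.

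The following settings were chosen after seeing the data. Of the 15 differences between the backgrounds, 8 passed with MIR counts, and 9 to 16 with a library left out, 9 without ein5-1 ski2-3 replicates 1 and 2. Negative ones numbered 17 with total counts, 3 with MIR counts and 4 to 11 with a library left out: 4 without those replicates, 5 without rdr6-11 replicate 2, and 6 without rdr6-11 replicate 3 or triple-mutant replicate 1 or 3. Positive ones numbered 2 with total counts, where TAS1A was at -0.12, and 5 in every fit with a library left out.

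Replicate numbers do not pair the libraries (residual correlations -0.039, -0.019 and 0.031). A replicate block gave 1417 genes higher, 1231 lower and 30 lost loci. Depth limits genes with few counts, such as TAS3C and the auxin receptors.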
